A study of Drosophila melanogaster with 4 samples.

Results

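Oxidative phosphorylation makes most of the ATP of a nerve cell. Complexes I and II feed electrons into ubiquinone, complex III passes them to cytochrome c, complex IV hands them to oxygen, and complex V, the ATP synthase, uses the proton gradient that complexes I, III and IV build. Photoreceptors and synapses of the fly head depend on this supply. The nuclear-encoded subunits of these complexes were followed in heads of Drosophila melanogaster males fed strychnine, a plant alkaloid that blocks the vertebrate glycine receptor.

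The members were all genes whose single symbol in the array's annotation begins with ND- (complex I), Sdh (II), UQCR or Cyt-c (III and its carrier), COX (IV) or ATPsyn (V), and that had a value on replicates 1, 2 and 4. The slide held 42 such genes in 98 spots, and 25 of them (54 spots complete on the 3 arrays) met the condition. These were 10 of 18 genes of complex I, 3 of 6 of complex II, 1 of 3 of complex III, 3 of 5 of complex IV and 8 of 10 of complex V. The rule used only the symbols and whether a value was present, not its size. They stand beside 4001 units measured on the same arrays, of which 2027 were named genes and the rest unnamed pairs of duplicate spots.

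The study hybridised 4 two-colour cDNA slides, each setting pooled head RNA of treated males against that of males kept in parallel on normal food. All flies were unmated Oregon-R wild-type males, 3 to 4 days old at the start, held 30 to a vial, and the treated food carried strychnine at 3.33 mg/ml for 7 days. The labels put treated RNA in Cy5 on replicates 1 and 2 and in Cy3 on replicates 3 and 4. Whole heads hold neurons, glia, muscle and fat body, so fewer cells of a type and less RNA per cell cannot be told apart.

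Before any result, 2 facts about the arrays have to be stated. Replicates 1 and 3 agreed to the last digit at all 7643 spots they share, although their labels give opposite dyes, so they were counted as 1 sample, called the shared set, which left 3 distinct sets. Neither the labels nor the series text say whether a positive log2 ratio means more Cy5 or more treated RNA. Signs below are therefore those of the deposited ratio, centred by subtracting the median of its array, and no sign is read as an increase or a decrease after strychnine. Where 3 log2 ratios are listed for a gene, they are those of the shared set, replicate 2 and replicate 4, in that order. Between 7647 and 9725 spots carried a ratio on an array. Of the fixed marker lists, 2 of 5 glial genes on the slide were measured, 3 of 9 photoreceptor genes, the single neuronal gene present (nSyb), 6 of 9 muscle genes and 5 of 8 fat body genes.

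Not every member gave a signal. Values on the 3 arrays existed for 59.5% of the 42 genes, against 29.8% of the 6793 named genes on the slide. A value here means that the spot passed the submitters' filters on brightness and quality, and no level can be given from a ratio. Among standard subunits 22 of 31 had values on the 3 arrays, among duplicates with the suffix L 3 of 11. Many such duplicated respiratory genes of Drosophila are transcribed mainly in the testis. The measured ones were ND-51L2, SdhAL and COX6AL. Of the other 17 members, 15 had no value on any array, among them ND-75, ND-42, SdhB and UQCR-6.4. ND-B8 had centred log2 ratios of -0.37 in the shared set and -0.21 on replicate 4 and none on replicate 2, and ND-18 had 0.55 on replicate 4 alone.

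Most of the 25 genes lay below the array median. Their median centred log2 ratios were -0.35, -0.27 and -0.12, where all units together had medians of 0.013, 0.011 and -0.0085. In the mean of the 3 sets the members' median was -0.33 (-0.15 without replicate 2), and 18 of 25 (72.0%) were below 0, against 52.0% of all units and 55.4% of named genes. A negative ratio in all 3 sets was found for 13 members (52.0%), where 27.0% of all units and 28.8% of named genes were negative throughout. A positive ratio in all 3 sets was found for 3 members (12.0%), where 28.4% of all units and 25.7% of named genes were. These are counts over genes, not a test, and the genes share slides and labelling reactions.

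**Figure D1:**
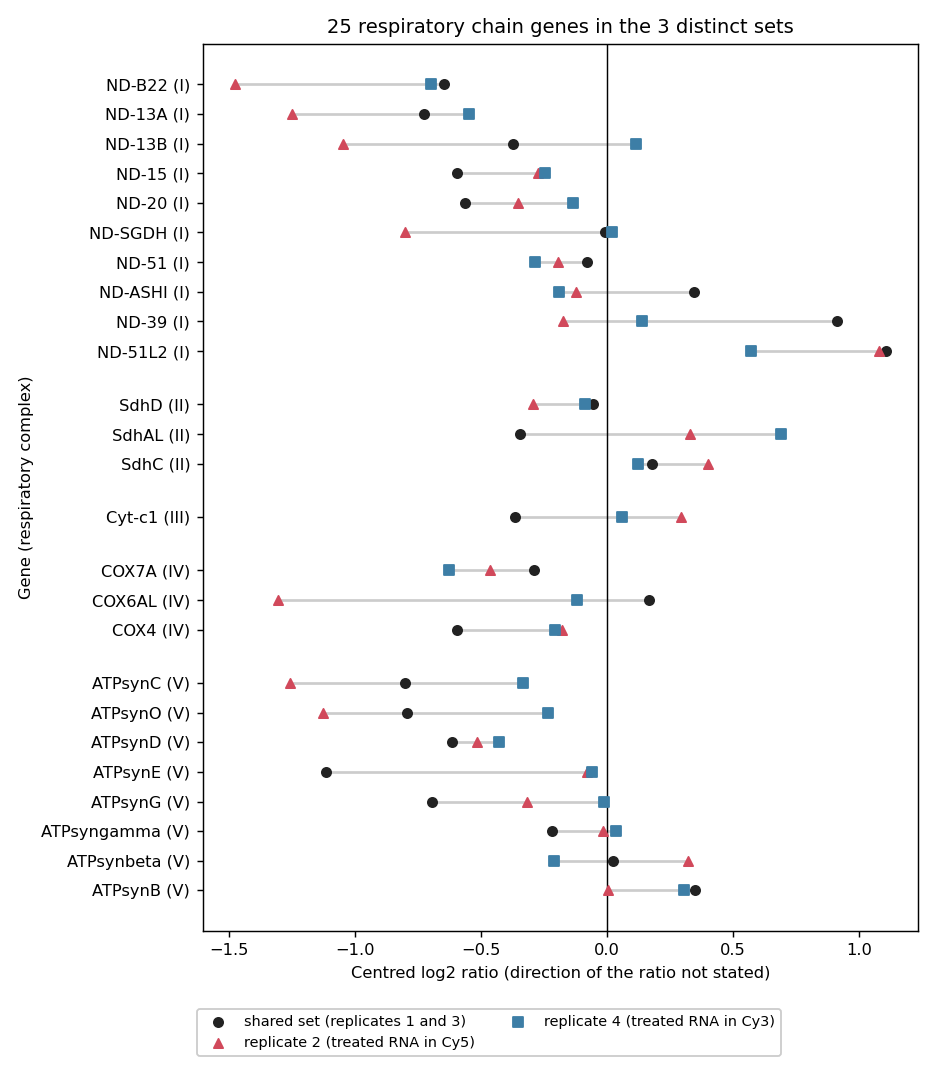
Centred log2 ratio (horizontal axis) of the 25 respiratory chain genes (vertical axis, complex in brackets), with 1 symbol for each of the 3 distinct sets and a grey line from the lowest to the highest. ND-B22 and ND-13A are negative and ND-51L2 is positive in all 3 sets, and replicate 2 gives the lowest value for several genes whose other values lie near 0.

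Complex I takes electrons from NADH in its matrix arm (the N and Q modules) and pumps protons in its membrane arm. Averaged over the sets, its 10 genes had a median of -0.31 (-0.16 without replicate 2) and ranged from -0.94 to 0.92, the widest spread of the 5 complexes. ND-B22, an accessory subunit of the membrane arm, had centred log2 ratios of -0.65, -1.47 and -0.70. The mean was -0.94 ± 0.46 (SD, n = 3 sets), a 1.92-fold difference from the array median, with a limma Benjamini-Hochberg adjusted p of 0.0482. ND-13A, an accessory subunit of the N module, was at -0.73, -1.25 and -0.55. Its mean of -0.84 ± 0.36 (SD, n = 3 sets) missed the threshold of 0.05 (limma adjusted p = 0.0524). For both genes replicate 2 was the lowest set by a wide margin.

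ND-51L2 went the other way. It is a duplicate of ND-51, the flavin-bearing subunit that binds NADH. Its centred log2 ratios were 1.11, 1.08 and 0.57. The mean was 0.92 ± 0.30 (SD, n = 3 sets), a 1.89-fold difference, and it passed the threshold (limma adjusted p = 0.0445). ND-51 itself was at -0.080, -0.19 and -0.29, a mean of -0.19 ± 0.10 (SD, n = 3 sets; limma adjusted p = 0.524). The standard gene was thus slightly negative in every set and the duplicate positive in every set, with no overlap between their values. After the correction for position on the slide described below, the sign of ND-51 was mixed, at 0.16, 0.13 and -0.11 (mean 0.060), still below the duplicate in each set. Of the testis and accessory gland markers, 4 of 10 on the slide were measured. Mst77F, a sperm chromatin gene, was at 0.86 and passed (limma adjusted p = 0.043), while Acp32CD was at 0.44, ocn at -0.11 and Mst85C at -0.57. With position corrected these 4 means were all positive, with a median of 0.31, and none passed. What part RNA of the reproductive tract has in the ND-51L2 ratio was not tested.

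The other genes of complex I did not pass the test. In the Q module, ND-20, an iron-sulphur core subunit beside the quinone site, was negative throughout at -0.56, -0.35 and -0.14. ND-39 was at 0.91, -0.17 and 0.14, and ND-13B at -0.37, -1.05 and 0.11. Their sets straddle 0, so neither has a common sign. In the membrane arm, ND-15 was at -0.60, -0.27 and -0.25. ND-SGDH, at -0.0070, -0.80 and 0.021, was low on replicate 2 alone, and there a second pair of its spots had no value. ND-ASHI was at 0.35, -0.12 and -0.19.

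Complex II, succinate dehydrogenase, links the citric acid cycle to the quinone pool. Its 3 measured genes had a median of 0.22 and none passed. That median was not stable in sign, at -0.0090 without replicate 4, -0.037 with scale normalization and -0.13 after the position correction. SdhC, a membrane anchor, was positive in all sets at 0.18, 0.40 and 0.12 (mean 0.23 ± 0.15, SD, n = 3 sets; limma adjusted p = 0.426). SdhAL, a duplicate of the flavoprotein, was at -0.34, 0.33 and 0.69 (mean 0.22 ± 0.52, SD, n = 3 sets; limma adjusted p = 0.553). SdhD, the other anchor, averaged -0.15 ± 0.13 (SD, n = 3 sets; limma adjusted p = 0.623), with -0.054, -0.30 and -0.087 in the sets. That average hides 2 pairs of spots in separate blocks of the slide. One pair read 0.27, 0.44 and 0.45 and the other -0.38, -1.03 and -0.63. The sign thus went with the pair of spots, alike in each of the 3 sets. Pair and block cannot be told apart here, and what set the sign was not tested.

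Complex III was represented by Cyt-c1, the haem protein that reduces cytochrome c. It was at -0.36, 0.29 and 0.057, a mean of -0.0052 ± 0.33 (SD, n = 3 sets; limma adjusted p = 0.989), and so showed no common sign. Complex IV, cytochrome c oxidase, had 3 genes with a median of -0.42. COX7A was at -0.29, -0.47 and -0.63 (mean -0.46 ± 0.17, SD, n = 3 sets; limma adjusted p = 0.145). COX4 was at -0.60, -0.18 and -0.21 (mean -0.33 ± 0.23, SD, n = 3 sets; limma adjusted p = 0.283). Both were negative throughout without passing. COX6AL, a duplicate of subunit 6A, was at 0.16, -1.30 and -0.12 (mean -0.42 ± 0.78, SD, n = 3 sets; limma adjusted p = 0.358), and without replicate 2 its mean was 0.023.

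Complex V turns the proton gradient into ATP by rotating a membrane ring (Fo) against a catalytic head (F1) held by a peripheral stalk. Its 8 genes had a median of -0.38, and 5 were negative and 1 positive in all sets. None passed, and the 3 with the smallest p belonged to the ring and the stalk. ATPsynC, the proton-carrying ring subunit, was at -0.80, -1.26 and -0.34 (mean -0.80 ± 0.46, SD, n = 3 sets; limma adjusted p = 0.0665). ATPsynO, which ties the head to the stalk, was at -0.80, -1.13 and -0.23 (mean -0.72 ± 0.45, SD, n = 3 sets; limma adjusted p = 0.080). ATPsynD, in the stalk, had the least spread of the members at -0.61, -0.52 and -0.43 (mean -0.52 ± 0.093, SD, n = 3 sets; limma adjusted p = 0.105).

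The F1 head lay near the array median, but not after the position correction. Its 2 genes were then negative in all sets, with means of -0.56 for ATPsynbeta and -0.21 for ATPsyngamma. Their median was -0.39, beside -0.16 for the 3 stalk genes and -0.26 for ATPsynC. The values that follow are those before the correction. ATPsynbeta, the catalytic subunit, was at 0.025, 0.32 and -0.21, and ATPsyngamma, the rotor shaft, at -0.22, -0.017 and 0.036. ATPsynB, another stalk subunit, was positive at 0.35, 0.0040 and 0.30, opposite in sign to its stalk partner ATPsynD. After the position correction that contrast was gone, with ATPsynB at -0.16 and ATPsynD at -0.13. Of the small membrane subunits, ATPsynE was at -1.12 in the shared set and at -0.082 and -0.061 on the other arrays. Its duplicate spots in the shared set differed by 1.21, the largest such gap among the members, whose median gap there was 0.106. ATPsynG was at -0.69, -0.32 and -0.011.

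In the test of the mean of sets, 2 of 25 members passed, both of complex I and of opposite sign. Across all units limma called 10.5% of 4001, 8.55% on the positive and 2.0% on the negative side, and 7.25% of named genes. A count of 2 in 25 is near that background. At an unadjusted p under 0.05 there were 7 of 25 members, where 34.4% of all units had such a p. On the negative side there were 6 of 25 members, beside 611 of 4001 units and 331 of 2027 named genes. Both calls were lost in several other fits. Without replicate 2 no member passed (ND-51L2 at 0.84 with limma adjusted p = 0.168, ND-B22 at -0.67 with adjusted p = 0.234). Without replicate 1, where the shared values are those of replicate 3, ND-B22 was at -0.92 (limma adjusted p = 0.0712) and ND-51L2, which has no value on replicate 3, could not be tested. Without replicate 4 ND-51L2 alone passed, and ND-B22 had a limma adjusted p of 0.0665. The call for ND-B22 also ended when the shared set was centred on the median of replicate 3 (limma adjusted p = 0.0594). The mean of each gene kept its sign in every one of these fits in which it had a value.

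Position on the slide moved with these ratios. The slide was read as 48 blocks of spots. Blocks, places within them and duplicate pairs were inferred from the order of the spot numbers, not taken from listed coordinates. The median of all spots of a block, averaged over the 3 sets, ran from -0.73 to 0.64. The members occupied 27 complete pairs of duplicate spots in 21 blocks. Across the 27 pairs the mean log2 ratio and the median of the pair's own block correlated with Pearson's r of 0.793 and Spearman's rho of 0.873, against r of 0.557 over all 4102 complete pairs. This is a description over spots that share slides. ND-B22 lay in the block with the lowest median of all, -0.73, and ND-13A in one at -0.51. ATPsynbeta lay in the block with the highest median, 0.64, and ND-51L2 in one at 0.36. The pair of SdhD that read 0.39 on average was in a block at 0.086, the pair that read -0.68 in one at -0.52.

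**Figure D2:**
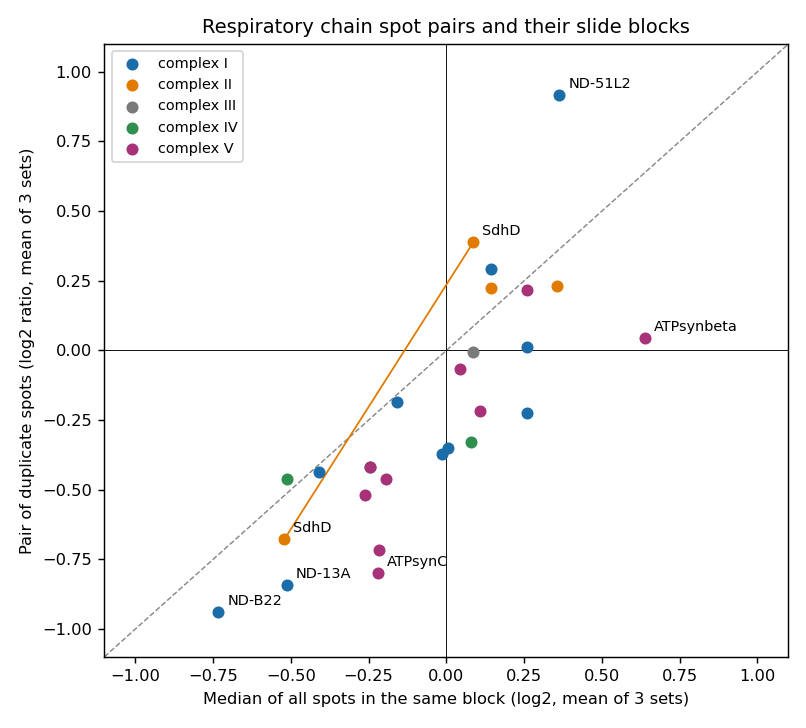
Mean log2 ratio over the 3 sets of each of the 27 complete member spot pairs (vertical axis) against the median of all spots in the same block (horizontal axis), coloured by complex; the dashed line marks equality and the orange line joins the 2 pairs of SdhD. Most pairs lie on or below the dashed line, ND-51L2 lies furthest above it, and ATPsynbeta sits near 0 in the block of highest median.

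After the block median and the trend within each block were removed, no member and 0.0% of units passed (limma, 834 of 4001 units and 4 of 25 members at an unadjusted p under 0.05). The members' median moved from -0.33 to -0.16, while that of all units was -0.033. The count below 0 was again 18 of 25, against 54.5% of all units. Those negative in all 3 sets went from 13 to 9 (36.0%), where 23.1% of all units were negative throughout. ND-B22 went to -0.14, ND-13A to -0.27, ATPsynC to -0.26 and ATPsynO to -0.27, and COX7A to 0.00074. In all, the mean of 10 members changed sign. ND-13B (0.059), ND-51 (0.060), SdhD (0.019), Cyt-c1 (0.030) and COX7A turned positive, and ND-ASHI (-0.20), SdhAL (-0.13), SdhC (-0.13), ATPsynB (-0.16) and ATPsynbeta turned negative. ND-51L2 kept 0.53 (limma adjusted p = 0.173), with 0.84, 0.35 and 0.39 in the sets. It was the 1 member of 25 still positive throughout, where 22.5% of all units were.

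The members furthest from 0 once position was removed were ATPsynbeta, ND-51L2 and ND-15. ATPsynbeta moved from 0.045 to -0.56, with -0.70, -0.45 and -0.55 in the sets, and ND-15 from -0.37 to -0.52, with -0.49, -0.56 and -0.50. ATPsynbeta and ND-15 had the smallest unadjusted p on this scale (0.00547 and 0.00595), and each had a limma adjusted p of 0.133. ND-20 was at -0.32, with -0.31, -0.41 and -0.23 in the sets (limma adjusted p = 0.223). All 8 genes of complex V were then below 0, with a median of -0.23. The medians of complexes I, II and IV were -0.17, -0.13 and -0.17, so that of complex II had changed sign. The spread between members, an SD of 0.42 before, was 0.22. Measured against the plain block median alone, 22 of 27 spot pairs (81.5%) lay below their block, against 53.4% of all pairs.

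**Figure D3:**
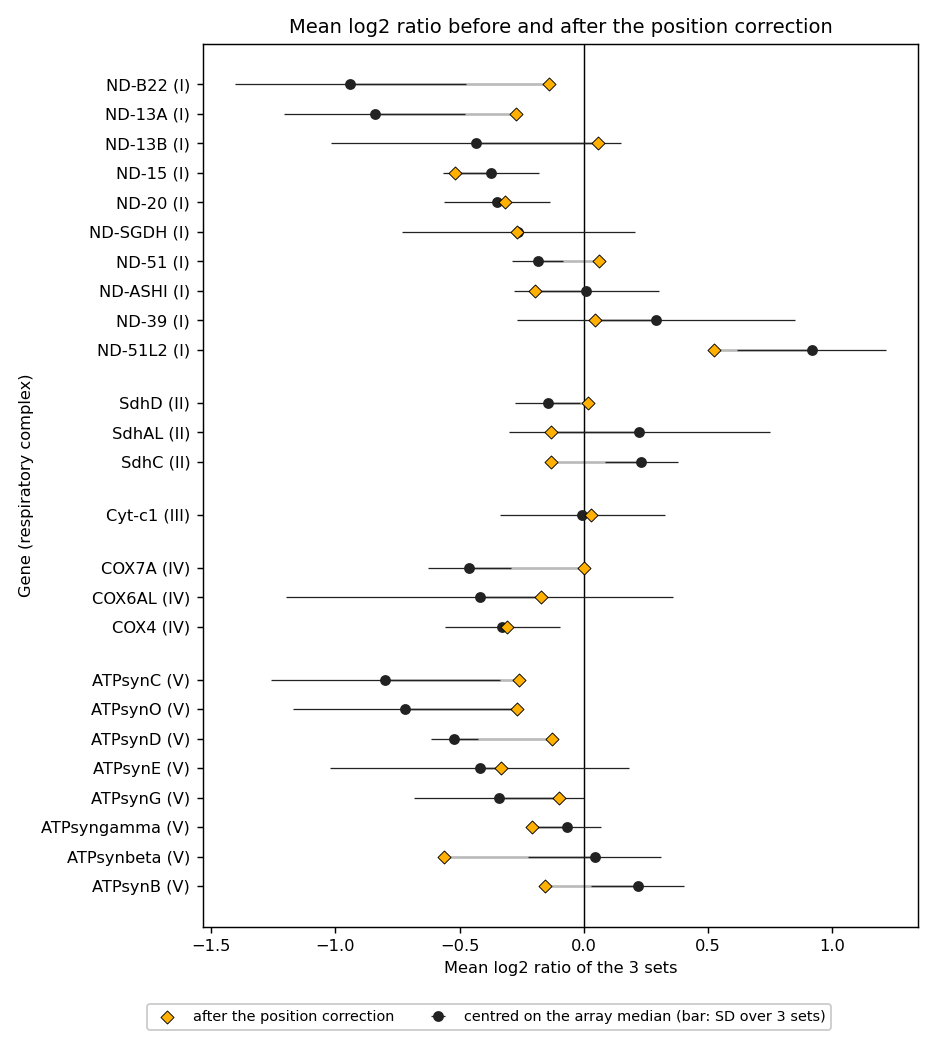
Mean log2 ratio of the 3 sets (horizontal axis) for the 25 genes (vertical axis, complex in brackets), centred on the array median (black circles, bars SD over 3 sets) and after the position correction (yellow diamonds). The values draw together, from a range of -0.94 to 0.92 to one of -0.56 to 0.53, ND-B22 moves from -0.94 to -0.14, and ATPsynbeta moves from 0.045 to -0.56.

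The ratio may instead be Cy5 over Cy3. A treatment effect then changes sign with the dye and equals the difference between replicates 2 and 4 divided by 2. The shared set, of unknown dye, was coded 0 and served only for the spread. A true effect would also move the shared set, whichever its dye, and the fit counts that shift as spread. Such a gene could thus hardly pass, so the count says little about an absence of effects. With the shared set coded as Cy5, limma called 2 units and had 304 at an unadjusted p under 0.05. Coded as Cy3, it called 1 and had 105, with no member called in either fit. In the contrast with the shared set at 0 no member passed, and limma called 0.0% of the 4001 units (158 units and 0 of 25 members at an unadjusted p under 0.05). The members ran from -0.59 for COX6AL to 0.27 for ATPsynbeta, with a median of -0.10 against -0.022 for all units, and 17 of 25 lay below 0, against 53.1% of all units. ND-13B had the smallest p, at -0.58 ± 0.24 (SE; limma adjusted p = 0.967), with a 95% interval from -1.19 to 0.022. The stalk and ring genes ATPsynC (-0.46 ± 0.24, SE) and ATPsynO (-0.45 ± 0.24, SE) and the accessory subunit ND-B22 (-0.39 ± 0.26, SE) followed the same sign. For ND-51L2 the contrast was 0.25 ± 0.25 (SE), with an interval from -0.37 to 0.88. With the values as deposited the members' median was 0.017 and that of all units 0.0995. The sign of both thus depends on centring, with the members below all units either way.

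**Figure D4:**
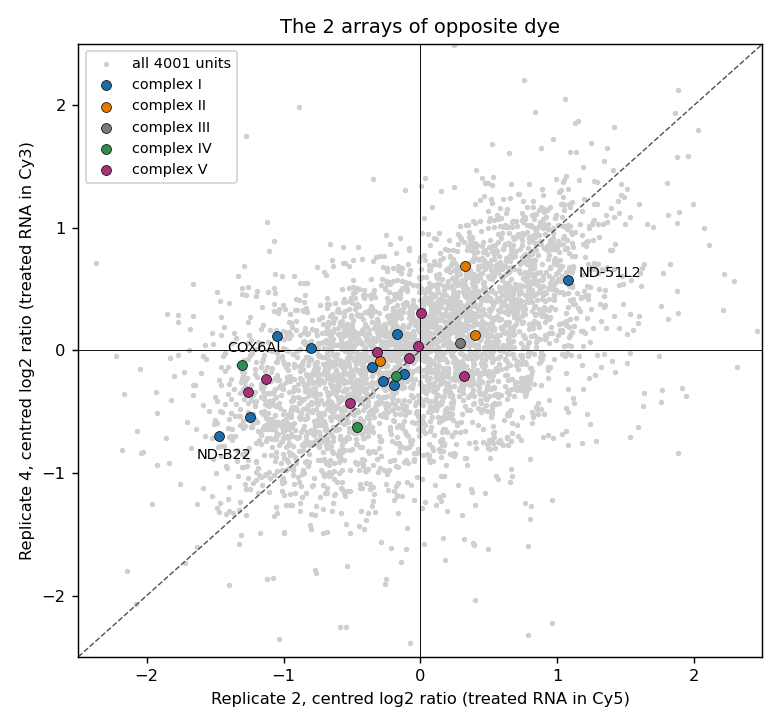
Centred log2 ratio on replicate 2 (treated RNA in Cy5, horizontal axis) and on replicate 4 (treated RNA in Cy3, vertical axis) for all 4001 units (grey, 35 of them outside the axes) and the 25 members (coloured by complex). The members' values on the 2 arrays correlated with r of 0.642, with COX6AL and ND-B22 far to the left on replicate 2.

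Agreement between arrays was partial. Pearson's r over the 25 genes was 0.642 for replicates 2 and 4, and the shared set gave 0.496 with replicate 2 and 0.508 with replicate 4. Over all units these were 0.477, 0.633 and 0.410. After the position correction the members' values were 0.141, 0.219 and 0.238, beside 0.330, 0.539 and 0.270 over all units. These describe genes on shared slides and carry no test. Within pairs of duplicate spots the median difference of the members was 0.106 to 0.136 on the 3 sets, beside 0.138 to 0.168 for all pairs.

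Other genes of mitochondrial energy supply were sparsely measured, 12 genes in 6 lists. Of these 1 passed on the positive side, a share of 1 in 12 that is near the 8.55% of all units, and none on the negative (2.0%). Their median was 0.21, and -0.10 after the position correction, where none passed. The gene that passed was aralar1, a mitochondrial carrier of aspartate and glutamate, at 1.09, 0.94 and 0.67 (mean 0.90, limma adjusted p = 0.043), and the position correction left 0.43 (limma adjusted p = 0.163). Mpcp1, a phosphate carrier, was at 0.37 (-0.0040 after the correction), and the carrier list had a median of 0.16 over 4 genes (-0.19 after it). The assembly factors were CIA30, of complex I, at 0.59, and Bcs1, of complex III, at 0.28, none past the threshold. With position corrected CIA30 was at 0.23 and Bcs1 had turned to -0.29. In the list of pyruvate and citric acid cycle genes mAcon2, an aconitase, was at 0.53 and Idh3a, a subunit of isocitrate dehydrogenase, at -0.38, with a median of 0.051 over 3 genes. The correction left mAcon2 at 0.56, turned Idh3a to 0.12 and brought Mdh1, a malate dehydrogenase, from 0.051 to -0.70. Sod2, the mitochondrial superoxide dismutase, was at 0.33 and Trxr1, a thioredoxin reductase, at 0.15, and after the correction at 0.20 and -0.20. levy, the standard subunit 6A of complex IV under another name, was at -0.41, -0.28 and -0.18, negative throughout like COX4 and COX7A. With the correction its mean went from -0.29 to -0.55, still negative throughout. COX4 (mean -0.31) and COX7A (mean 0.00074) then had mixed signs. No gene of electron entry and quinone synthesis was measured on the 3 arrays.

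Mitochondrial ribosomal proteins, which make the subunits encoded in mitochondrial DNA, had a median of -0.22 over 15 genes, with 6 negative (40.0%) and 3 positive (20.0%) in all sets, against 27.0% and 28.4% of all units, and 1 past the threshold on the negative side, where 2.0% of all units were. After the position correction their median was -0.12 and 4 were negative throughout (26.7%), near the 23.1% of all units. Muscle, the other tissue of the head rich in mitochondria, had 3 of 6 measured markers negative and 3 positive in all sets, with a median of -0.15. Mlc2, a myosin light chain, was at -0.80 and Act88F, an actin, at -0.69, while Act87E was at 0.32. The position correction turned the muscle median to 0.061, with no marker negative in all sets, and left Mlc2 at -0.54, Act88F at 0.16 and Act87E at -0.036. The 2 glial genes, Gs2 and Eaat2, were at -0.72 and -0.71, and at -0.34 and -0.33 after the correction.

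Photoreceptor markers had a median of -0.021 and nSyb was at -0.34, and after the correction they were at 0.14 and -0.56. The lists of fat body and gut went both ways. Of 5 fat body genes, with a median of -0.12, Fbp2 passed at 0.76 (limma adjusted p = 0.0473) and Yp2, a yolk protein, was at -1.63 (limma adjusted p = 0.145). The Yp2 mean came mostly from replicate 4, with -0.26, -0.465 and -4.16 in the sets (SD 2.19). Of 5 gut proteases, with a median of 0.16, yip7 at 1.56 and Jon65Aiii at 1.34 passed (limma adjusted p = 0.0375 for each), while Jon66Cii was at -0.58. After the correction none of these passed, with Fbp2 at 0.39, Yp2 at -1.54, yip7 at 0.85 and Jon65Aiii at 0.68. The part of these tissues in the members' ratios was not tested.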

How the data were processed

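The deposited values are the authors' ratios per spot, read as log2. Neither log base nor direction is stated there. Per the series' design text, GenePix Pro 6.0 quantified the images, Acuity 4.0 did the ratio normalization, and spots stayed in with under 3% of saturated pixels, R2 from 0.6 and signal to noise from 3. Dim spots under 100 units of raw intensity were left out of the normalization step where they also lay near background. Channel intensities were not used, so a spot's brightness is known only through these filters, and the number of arrays limits the precision.

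Spots were averaged by gene symbol or, where unnamed, by duplicate pair, meaning neighbours in the order of spot numbers. All 42 symbols matched a RefSeq gene of Release 6 by gene ID, unchanged. No coordinates are given, because the annotation names no build, and no sequences were in the sources used here. Arrays were centred on the median over spots. Units with a value on replicates 1, 2 and 4 entered limma 3.58.1 (R 4.3.3), two-sided, with Benjamini-Hochberg adjustment over 4001 units and a threshold of 0.05. One fit took the mean of the 3 sets, the other a treatment term coded by the dye of the treated RNA with a dye term. In the second the shared set was coded 0. The labels call the arrays biological replicates, and p-values measure only their spread. The position correction subtracted block medians, then a robust loess (span 0.4) in blocks of at least 30 values. Every member may be named, and full statistics go to members past the threshold and to the 3 of smallest p in each complex. The members and lists were chosen with earlier results of these data known.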

Additional observations from a re-analysis of the deposited data

How the results depend on the processing

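No paired analysis was possible because the arrays form 1 group, and each is already a ratio between treated and control RNA of its own replicate. The count of members past the threshold in the mean of sets, 2, was 0 with the values as deposited, after the position correction and with scale normalization, 1 with the shared set centred on the median of replicate 3 (chosen after seeing the data) and 1 over standard subunits only. It was 4 without spots beyond 3, 5 at a threshold of 0.10 and 5 with all 4 columns as labelled, which counts the identical columns as separate. Leaving out 1 replicate gave 0 to 2. In the dye contrast it was 0 in all 13 alternatives run. Most of these kept the shared set coded 0, which counts a treatment effect as spread, so their agreement adds little. The exceptions were the fits without replicate 3, with the shared set read as Cy3 and with all 4 columns. The dye contrast could not be fitted without replicate 2 or 4.

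All units called numbered 422 in the mean of sets, 278 with the shared set centred on replicate 3, 64 without replicate 1, 8 without replicate 2, 278 without replicate 4, 663 without extreme spots, 901 with all 4 columns, 1049 at 0.10, 214 of 2027 named genes, and 0 as deposited, with scale normalization and after the position correction. In the dye contrast there were 0, but 11 as deposited, 2 without replicate 3 and 1 with the shared set read as Cy3.

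With the values as deposited every median shifted down by the same amount (all units -0.40): -0.70 for the members, and -0.68, -0.15, -0.38, -0.79 and -0.75 for complexes I to V. The dye contrast as deposited had a median of 0.017 for the members and 0.0995 for all units. After the position correction the medians were -0.16 for the members, -0.17 for complex I, -0.13 for II and -0.17 for IV. Scale normalization gave -0.037 for complex II, -0.23 for III and -0.66 for V. Leaving out 1 replicate gave -0.39 to -0.15 for the members, -0.42 to -0.16 for complex I, -0.0090 to 0.22 for II, -0.15 to 0.014 for III, -0.42 to -0.39 for IV and -0.54 to -0.36 for V.

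Genes whose sign turned in the mean of sets were not past the threshold. Among those given with full statistics, after the position correction COX7A was at 0.00074, Cyt-c1 at 0.030, SdhD at 0.019, SdhAL at -0.13 and SdhC at -0.13. As deposited SdhAL was at -0.15 and SdhC at -0.14. SdhAL was at -0.037 with scale normalization and -0.0090 without replicate 4, and COX6AL ran from -0.57 to 0.023 with 1 replicate left out. Cyt-c1 was at 0.023 centred on named genes and 0.014 without replicate 1 or centred on replicate 3. In the dye contrast ATPsynD was at 0.077 as deposited, 0.041 with scale normalization and 0.0023 with the shared set read as Cy3, where COX7A was at -0.0048 and SdhAL at 0.077. SdhD was at 0.017 as deposited. COX4 was at -0.28 and ND-51L2 at -0.017 after the position correction. With 1 replicate left out COX4 went to -0.090, and Cyt-c1 ran from -0.047 to 0.12. The cause of these shifts was not tested. Brightness over background is known here only through the submitters' minimum signal to noise of 3, not for each spot.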
